A study of Rattus norvegicus with 6 samples.

Results

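The miR-21 hairpin gives rise to a pair of mature microRNAs, rno-miR-21-5p and rno-miR-21-3p, one from each arm. Both were chosen by name, with no threshold on their values, and both were found on the array, which covers rat microRNAs with 1806 probes and 12128 spots. The 2 arms were measured in plasma of 3 untreated male Sprague-Dawley rats aged 10 weeks. From each rat, 3 mL of blood was drawn from the abdominal aorta (arterial plasma) and from the postcava (venous plasma), and each of the 6 plasma samples was hybridized to 1 single-colour Agilent array. Between 137 and 175 microRNAs were detected on an array. The blood, taken into EDTA, was spun and the plasma passed through a filter, so the measured RNA is RNA outside intact cells, and fewer releasing cells, less RNA released per cell and faster clearance cannot be told apart in it.

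MicroRNAs are cut from a folded precursor RNA by the enzymes Drosha and Dicer, and usually one arm of the precursor is loaded into an Argonaute protein while the other is degraded. In miR-21 the 5p arm is the one known as the guide strand in most tissues, and the 3p arm is the one usually called the passenger. The microRNA pairs with messenger RNAs through its seed, bases 2 to 8, and a known target of miR-21-5p is Pdcd4, which restrains translation and growth. miR-21-5p is known from many cell types, among them those of vessels, the immune system and fibrotic tissue.

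The sequences of both arms and of their precursor, from the RefSeq table of the GRCr8 assembly, are shown because they define what the array could measure. The seed is in capitals in the mature microRNAs, and the bases that become the mature arms are in capitals in the precursor.
rno-miR-21-5p: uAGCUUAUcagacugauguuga
rno-miR-21-3p: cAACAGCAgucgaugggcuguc
Mir21 precursor: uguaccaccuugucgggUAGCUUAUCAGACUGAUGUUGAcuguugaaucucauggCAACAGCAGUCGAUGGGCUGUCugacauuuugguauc
Each arm is 22 bases long. The 5p arm occupies bases 18 to 39 and the 3p arm bases 56 to 77 of the 92-base precursor, with 16 bases between them. Of the 22 bases of the 5p arm, 8 are G or C, and of those of the 3p arm 13 are. In the fold of lowest energy computed with RNAfold, 19 base pairs joined the arms to each other. The arms carry different seeds, and neither seed occurs in another of the 693 mature rat microRNA names of that table, which holds 685 of the microRNA names on the array. In the RefSeq gene order the neighbours of Mir21 are Tubd1, on the opposite strand, and Vmp1, a gene of autophagy, on its own strand.

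The arms differed in whether they were measured at all. Feature Extraction called rno-miR-21-5p detected on all 6 arrays and rno-miR-21-3p on none. For rno-miR-21-5p the array carries 2 probes with 8 spots each, and all 96 spots over the 6 arrays were well above background. For rno-miR-21-3p it carries 4 probes with 4 spots each, and none of the 96 spots was well above background. No spot of either arm was saturated.

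**Figure D1:**
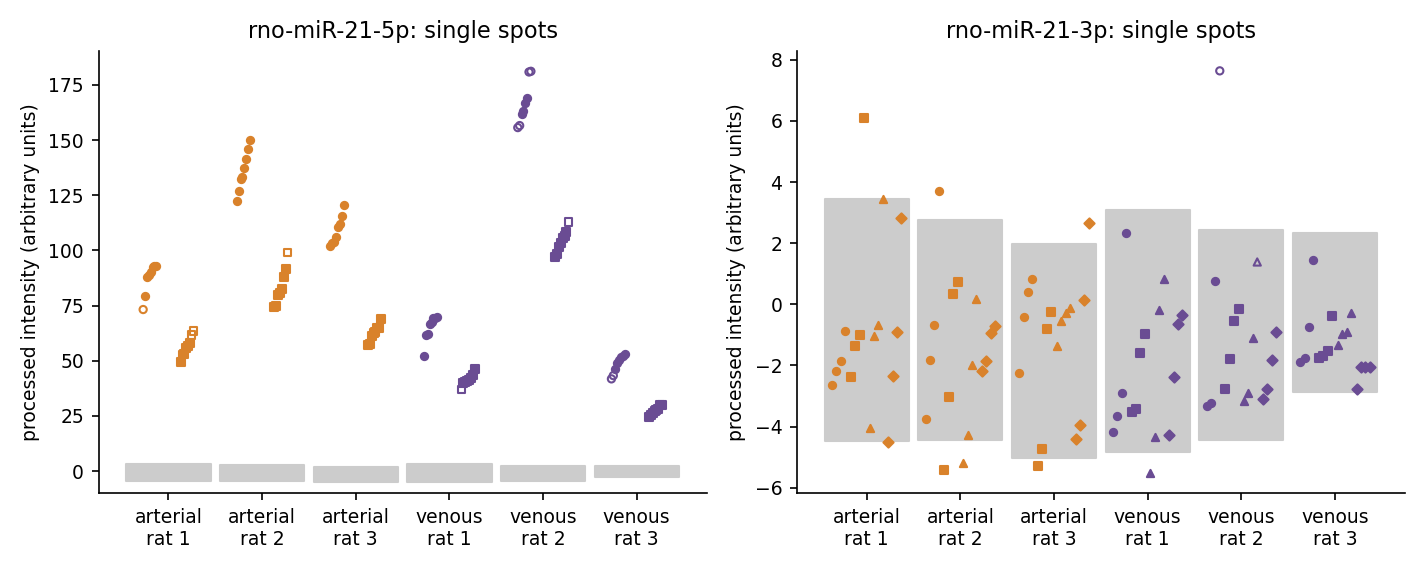
Processed intensity (background subtracted, arbitrary units) of each single spot of rno-miR-21-5p (left) and rno-miR-21-3p (right) on the 6 arrays, orange for arterial and violet for venous plasma. Marker shapes stand for the different probes, open markers for spots left out as outliers, and grey bars for the central 95% of the negative control spots of the array; the spots of rno-miR-21-5p lie far above the grey bars on every array and those of rno-miR-21-3p lie mostly within them.

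In background-subtracted intensity, averaged over spots and probes, rno-miR-21-3p measured -0.84, -1.68 and -1.28 on the arterial arrays (rats 1 to 3) and -2.18, -1.95 and -1.30 on the venous arrays. All 6 array means were below 0, although single spots reached up to 6.08. The medians of the negative control spots on the same arrays lay between -1.18 and -0.68. Single spots of rno-miR-21-3p that Feature Extraction called positive and significant numbered 6 of 96 (6.25%), against 65 of 1092 (5.95%) of the negative control spots. These were 5 of 48 in arterial and 1 of 48 in venous plasma, against 36 and 29 of 546 negative control spots. Since both plasma types were at background for rno-miR-21-3p, no difference between arterial and venous plasma was detectable for it and no fold is given.

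The array holds 281 pairs of names that differ only in -5p and -3p. Arms with a copy number in the name, such as rno-let-7a-1-3p, were not paired, so the counts do not cover every hairpin. Among the 281 pairs, 63 (22.4%) had the pattern of miR-21, with one arm detected on all 6 arrays and the other on none. The detected arm was the 5p arm in 31 of them and the 3p arm in 32. Both arms were detected on all 6 arrays for 8 pairs, and for 155 neither arm was detected on any array. Since probes differ in brightness per molecule, these counts describe detection and do not give a ratio of the arms.

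Before any normalization between arrays, the intensity of rno-miR-21-5p was 71.9, 108.9 and 85.9 on the arterial arrays of rats 1 to 3, and 53.4, 134.1 and 39.0 on the venous ones. It was higher in the arterial sample of rats 1 and 3 and higher in the venous sample of rat 2. The arterial to venous ratio was 1.35, 0.812 and 2.20 in rats 1, 2 and 3. The overall brightness of the arrays moved the same way. For the median of 126 microRNAs, those that every array detected, the arterial to venous ratios were 1.62, 0.790 and 1.75 in the same rats. Set against this median, the log2 ratio of rno-miR-21-5p was -0.27 in rat 1, 0.04 in rat 2 and 0.33 in rat 3.

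**Figure D2:**
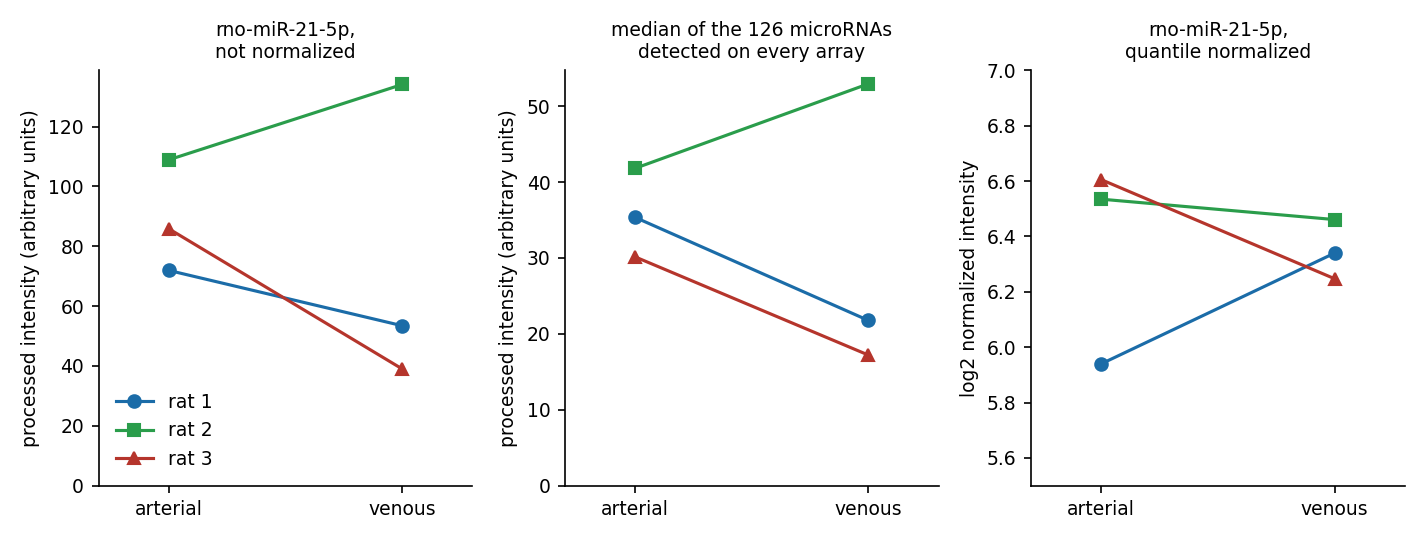
Arterial and venous values of rats 1, 2 and 3, joined by rat: processed intensity of rno-miR-21-5p before normalization (left), the same for the median of the 126 microRNAs that every array detected (middle) and log2 quantile-normalized intensity of rno-miR-21-5p (right, axis not from 0). Before normalization the lines of rno-miR-21-5p slope as those of the array median do, down in rats 1 and 3 and up in rat 2; after it rat 1 is lower, and rats 2 and 3 are higher, in arterial plasma.

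After quantile normalization the log2 intensity of rno-miR-21-5p was 5.94, 6.53 and 6.61 on the arterial arrays of rats 1 to 3, against 6.34, 6.46 and 6.25 on the venous ones. All 3 venous values lay inside the range of the arterial ones, so the groups overlapped fully. Arterial plasma had a mean of 6.36 ± 0.37 (SD, n = 3) and venous plasma one of 6.35 ± 0.11 (SD, n = 3). Within rats, arterial minus venous was -0.40 in rat 1, 0.07 in rat 2 and 0.36 in rat 3, or 0.01 ± 0.38 (SD, n = 3 rats). The signs differed between rats, and the exact permutation test within rats gave a two-sided p of 1. With 3 pairs that test cannot go below 0.25.

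In limma over all microRNAs with the rat as a block, the difference of rno-miR-21-5p was 0.01 on the log2 scale (standard error 0.211, adjusted p = 1 from limma). Its 95% confidence interval ran from -0.82 to 0.84, which is a ratio of arterial to venous level between 0.565 and 1.79. Neither miR-21 arm passed the study's unadjusted p cutoff of 0.025, which 6 microRNAs (0.792%) passed, 4 with more arterial and 2 with more venous signal. At an adjusted p of 0.05 from limma with Benjamini-Hochberg adjustment 0 microRNAs (0%) were called, while 12 reached 0.05 without adjustment. With the methods' t-test, too, 0 were called after adjustment and 9 reached 0.05 without it. In a fit restricted to the 126 that every array detected, the interval of rno-miR-21-5p narrowed to -0.54 to 0.56, a ratio between 0.689 and 1.47 (adjusted p = 1 from limma). The standard error there was 0.216 and thus not smaller. The interval narrowed because limma's prior degrees of freedom were 3.22 there, against 0.198 over all microRNAs. In the restricted fit 3 microRNAs (2.38%) passed the cutoff, and 0 passed after adjustment, while 7 reached 0.05 without it. Differences of rno-miR-21-5p inside these intervals remain compatible with the values of the 3 rats. The smallest difference that 3 rats could detect was not computed.

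The probes of rno-miR-21-5p gave the same order of rats. Relative to the array median, the log2 ratio of arterial to venous intensity was -0.24, 0.06 and 0.30 in rats 1, 2 and 3 at the brighter probe. At the dimmer probe it was -0.32, 0.01 and 0.38. Spots of a probe on an array had SDs of 1.99 to 9.38 intensity units, at used spot intensities of 24.5 to 168.9. Spots and probes of an array share its RNA and are not replicates of a plasma type. Of the 96 spots of rno-miR-21-5p, 13 were left out as outliers.

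The order of the 6 normalized log2 levels, from the highest, was arterial rat 3, arterial rat 2, venous rat 2, venous rat 1, venous rat 3 and arterial rat 1. Neighbours in this order were 0.07 to 0.31 apart, each less than the SD of 0.38 of the differences within rats. The means of the arterial and venous sample of a rat were 6.14, 6.50 and 6.43 in rats 1, 2 and 3. The arrays of rats 1 and 2 shared 1 slide, and those of rat 3 lay on the other. Within the first slide the mean arterial minus venous difference was -0.16 over 2 rats, and within the second it was 0.36 in 1 rat. Since the second slide held rat 3 alone, slide and rat cannot be told apart.

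Over the 6 arrays the SD of the log2 intensity of rno-miR-21-5p was 0.24, and that of the 126 microRNAs had a median of 0.43. Of these 126, 20 (15.9%) had a smaller SD than rno-miR-21-5p, and 7 had a mean difference between arterial and venous plasma nearer to 0. The SD of its rat means was 0.19, with 25 of 126 smaller, and the SD within rats was 0.22, with 41 of 126 smaller. The median SD within rats over the 126 was 0.27, so the change of rno-miR-21-5p within single rats lay nearer to the middle of the 126 than its mean difference did.

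**Figure D3:**
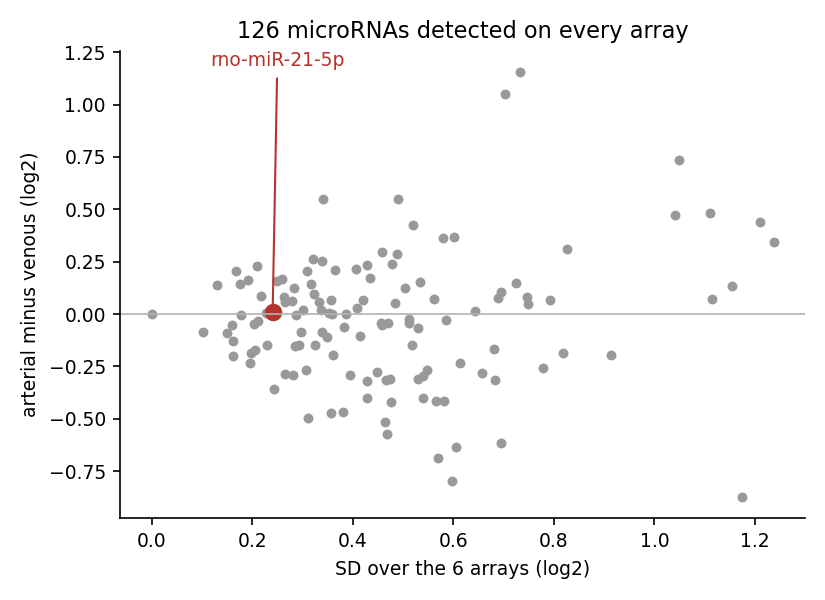
Each point is 1 of the 126 microRNAs that every array detected, with the SD of its log2 intensity over the 6 arrays on the horizontal axis and its mean arterial minus venous difference (log2, 3 rats) on the vertical axis. rno-miR-21-5p, in red, lies at an SD of 0.24 and a difference of 0.01.

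The microRNAs whose levels followed those of rno-miR-21-5p most closely over the 6 samples were rno-miR-107-3p, rno-miR-27a-3p, rno-miR-146a-5p, rno-miR-30c-5p and rno-miR-192-5p. Their Pearson correlations with it were 0.92, 0.91, 0.90, 0.90 and 0.89, among 124 microRNAs compared, with a median of 0.10. These values are a description over 6 samples that share rats and arrays, and the 5 microRNAs were the highest of all those compared. In the arterial plasma of rat 1 all 5, like rno-miR-21-5p, had their lowest level of the 6 samples. Without that sample the correlations over the other 5 samples were 0.82, 0.78, 0.78, 0.77 and 0.59. rno-miR-146a-5p, known as a brake on innate immune signalling, had log2 levels of 5.25, 5.85 and 5.97 in arterial and 5.41, 5.81 and 5.66 in venous plasma. rno-miR-192-5p, known as abundant in liver, spread more, with 4.17, 5.72 and 5.66 in arterial and 4.88, 5.31 and 5.44 in venous plasma. None of the 5 passed the cutoff, and their mean arterial minus venous differences lay between -0.03 and 0.06 on the log2 scale.

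**Figure D4:**
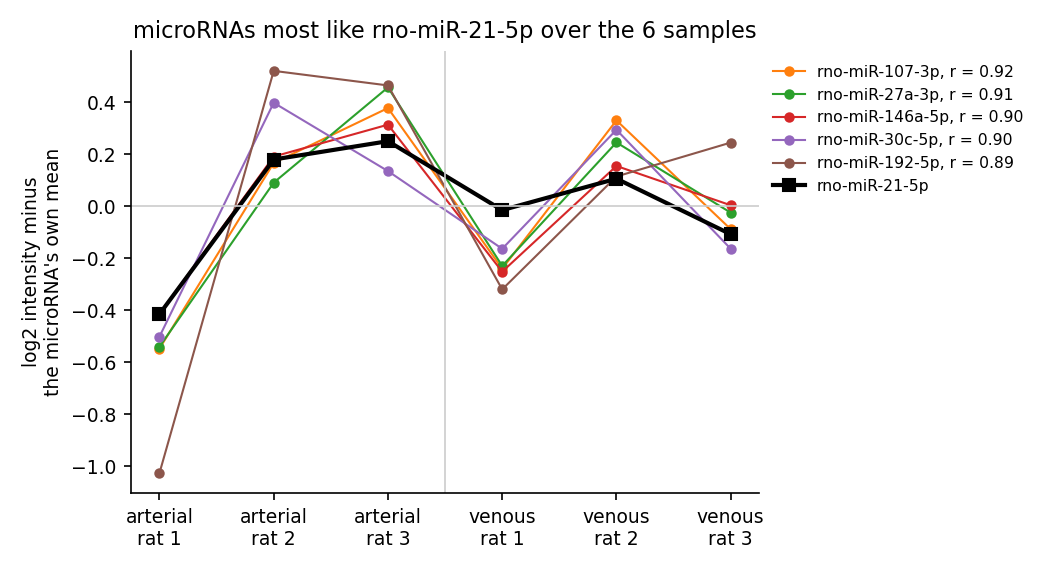
Log2 normalized intensity minus the microRNA's own mean over the 6 samples (vertical axis) for rno-miR-21-5p (black squares) and the 5 microRNAs most like it (coloured circles), by sample. In all 6 microRNAs the arterial sample of rat 1 is the lowest.

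Beside miR-21, a list of 20 microRNAs known for roles in fibrosis, vascular injury and inflammation was described. All 20 were on the array, 12 were detected on all 6 arrays, and 3 on none. None of the 20 passed the cutoff in either direction, against 0.792% of all microRNAs tested, a share that counts the 379 at the floor. Of the 12 detected on all arrays, 9 had a mean difference above 0 and 3 below 0. Their median difference was 0.08 on the log2 scale, beside -0.0040 over all 126. The differences ran from -0.08 for rno-miR-214-3p to 0.74 for rno-miR-143-3p, a microRNA known from smooth muscle. The arterial minus venous difference of rno-miR-143-3p was 0.33, 0.89 and 1.00 on the log2 scale in rats 1 to 3, above 0 in each (adjusted p = 1 from limma over all microRNAs). In the fit of the 126 it passed the unadjusted cutoff, with an adjusted p of 0.646 from limma. rno-miR-145-5p, encoded in the same cluster and in the same list, had differences of 0.41, 0.10 and -0.28 in these rats, with a mean of 0.08 (adjusted p = 1 from limma), and so was below 0 in rat 3. rno-miR-29a-3p, which is known to repress collagens, had a difference of 0.08 (adjusted p = 1 from limma).

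Markers of cells that could release RNA into plasma were set beside the values of rno-miR-21-5p, whose differences were -0.40, 0.07 and 0.36 in rats 1, 2 and 3. Of 6 platelet and leukocyte microRNAs 5 were detected on all arrays, with median differences of -0.22, -0.40 and 0.54 in the same rats. Medians here are over the members detected on all arrays, while sums take in all members of a list, also those at background. The summed normalized intensity of all 6 ranged from 516 to 967 in arterial and from 678 to 916 in venous plasma. Of 6 erythrocyte microRNAs 5 were detected on all arrays and rno-miR-144-5p on none, with median differences of -0.24, -0.45 and 0.23. The sums of all 6 ranged from 2206 to 2561 in arterial and from 1997 to 2585 in venous plasma. Much of these sums was rno-miR-451-5p, which held the same rank and therefore the same quantile-normalized log2 value of 10.49 on 5 of the 6 arrays, so the sums are narrowed by the normalization. The medians of both lists were below 0 in rats 1 and 2 and above 0 in rat 3, while rno-miR-150-5p of the first and rno-miR-486 of the second were below 0 in all 3 rats. Of 3 liver microRNAs 2 were detected on all arrays and rno-miR-194-5p on none, with medians of -0.46, 0.82 and 0.26 and sums of 73.3 to 585 in arterial and 93.2 to 267 in venous plasma. The signs of the liver medians were those of rno-miR-21-5p in all 3 rats, and the blood cell medians had its sign in rats 1 and 3. The 12 detected members of the fibrosis, vascular injury and inflammation list had medians of -0.15, 0.26 and 0.27, also with its signs in all 3 rats. The matching signs were thus not particular to liver microRNAs. Of the 2 detected liver microRNAs, rno-miR-192-5p was also among the 5 picked for likeness to rno-miR-21-5p. The liver match is therefore not separate from that choice. Over the 126 microRNAs that every array detected, the median differences were -0.13, 0 and 0.02 in rats 1, 2 and 3. The signs in rats 1 and 3 were thus also those of this wider median. Of 6 muscle microRNAs only rno-miR-133b-3p was detected on all arrays, with differences of 0.12, 0.12 and -0.03, and rno-miR-1-3p, rno-miR-133a-3p, rno-miR-208a-3p and rno-miR-499-5p were detected on none. The muscle sums, which include the members not detected, ranged from 18.6 to 44.6 in arterial and from 19.2 to 46.3 in venous plasma. No member of the 4 lists passed the cutoff, and the part of these cells in the level of rno-miR-21-5p was not tested.

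In the authors' quantile-normalized table, whose values rank as the raw brightness of the spots without background subtraction, the mean intensity of the probes of rno-miR-21-5p was 110.3, 148.8 and 157.7 on the arterial and 126.5, 148.1 and 125.5 on the venous arrays of rats 1 to 3. The arterial to venous ratios were 0.872, 1.00 and 1.26, so that the rats kept the order seen above. In the same table rno-miR-21-3p lay between 36.9 and 40.6 in all samples.

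**Figure D5:**
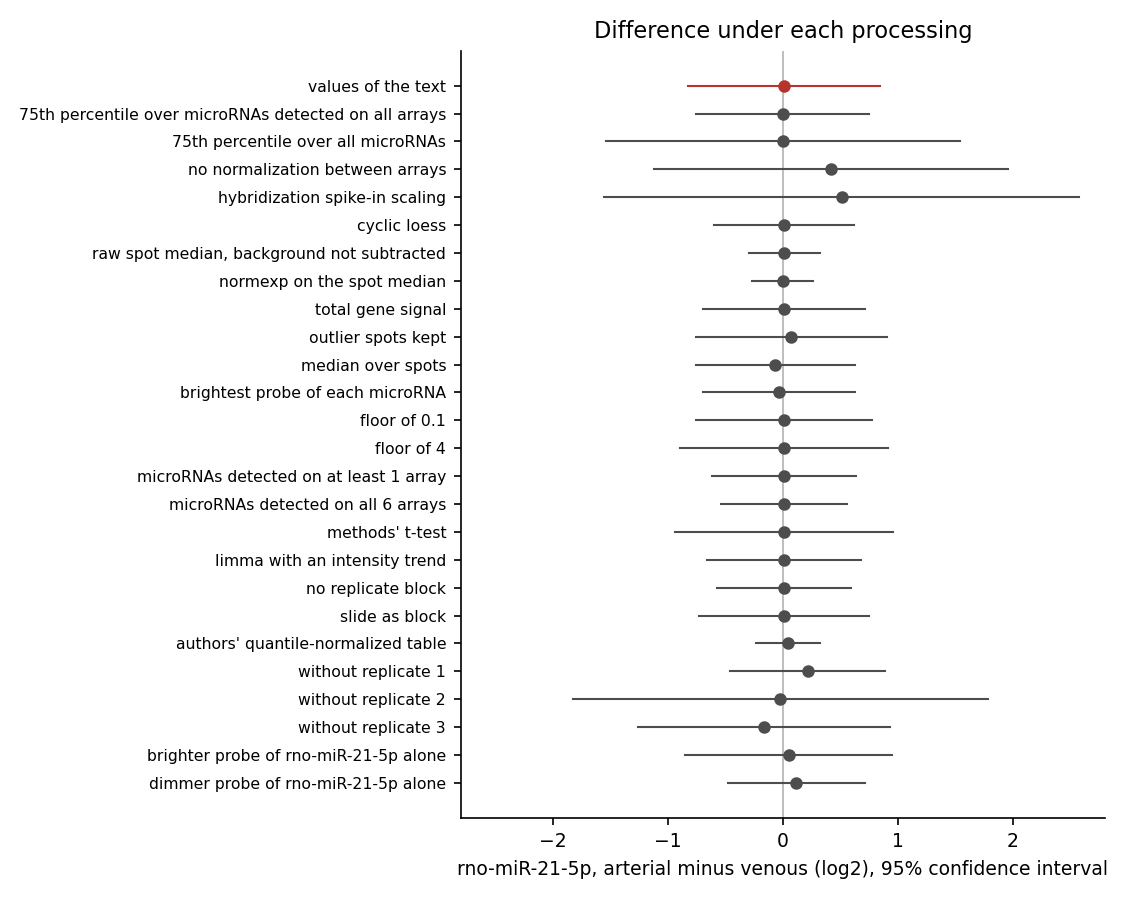
Mean arterial minus venous log2 difference of rno-miR-21-5p (points) with its 95% confidence interval (lines) under the processing of the text (red) and 25 alternatives (grey), the spike-in scaling resting on control spots that the files do not name as spike-ins. Every interval includes 0, and the points lie between -0.16 and 0.51.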

How the data were processed

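Total RNA from each plasma sample was labelled with Cy3 and hybridized to an Agilent Rat miRNA array. The authors deposited Feature Extraction files, whose spot intensity has the local background subtracted and is not normalized between arrays (version 11.0.1.1 per the labels, 10.7.3.1 per the file headers). They also deposited a table of linear intensity that they quantile normalized with GeneSpring, with array medians of 38.5 to 42.3. On each array its 1806 probes kept the rank of the unsubtracted median intensity of their first spot (Spearman correlation 1). The calls of detection, of signal well above background and of outliers (other values) stand in the same Feature Extraction files as the authors deposited them. Outlier spots, 8.72 to 10.4% of an array, and control spots were not used. Spots were averaged into probes and probes into microRNAs. Quantile normalization across arrays, a floor of 1 and the log2 followed.

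Differences between arterial and venous plasma were tested two-sided in limma 3.58.1 (R 4.3.3), with the rat as a block and Benjamini-Hochberg adjustment over the 758 microRNAs. The samples were paired by rat number, since both come from 1 animal, and deviations from the group means correlated within rats at 0.799, 0.686 and 0.635. Both arrays of a rat also shared a slide, so these correlations do not isolate the animal. RNAfold 2.7.2 folded the precursor. The steps were tested on simulated data. Intensities carry no counts, and the precision is limited by the number of arrays.

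The members and lists were chosen with earlier results of these data known. The text names, by rule, the 2 arms, the 5 microRNAs most like rno-miR-21-5p, any that share a seed and list members past the cutoff. Other list members were named after their values were seen. The array design names another assembly than GRCr8, so no coordinates are given. Alternatives varied the normalization, intensity, floor, probe summary, detection filter, test, block and rats.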

Additional observations from a re-analysis of the deposited data

How the results depend on the processing

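The difference of rno-miR-21-5p (0.01) stayed short of the cutoff under all 25 alternatives, from -0.16 to 0.51, with 20 above and 5 below 0. It was highest without normalization between arrays (0.42) and with scaling to the control spots dmr_3 and dmr_6 (0.51), taken here as hybridization spike-ins although the files do not name them so, where the 126 microRNAs that every array detected shifted, in their median, by 0.40 and 0.49, leaving 0.02 relative to it. It turned negative with the 75th percentile over detected microRNAs (-0.0021), a scaling that shifted the median of the 126 by -0.021. Scaling an array moves all its log2 values above the floor by the same amount. The 0.02 relative to the median is therefore the same value in these settings by construction and is no repeated result. The difference of rno-miR-21-5p was also negative with the median over spots (-0.065) and the brightest probe (-0.036). With 1 rat left out it ranged from -0.16 (without rat 3) to 0.22 (without rat 1), with -0.02 without rat 2. The cause of the changes under settings other than these scalings was not tested. Without the rat as a block the difference of rno-miR-21-5p was 0.01, with 3 arterial and 2 venous microRNAs past the cutoff. The changes of floor, detection filter, test and block made here cannot move this mean difference. They count among the 20 above 0 by construction, and their sign is no repeated result. The brighter and the dimmer probe alone, chosen after seeing the data, gave 0.05 and 0.12. rno-miR-21-3p stayed at 0 except for 0.010 with raw spot medians, 0.026 with normexp and -0.052 in the authors' table, where background is not subtracted or an offset is added, and could not be fitted where microRNAs detected on no array were left out.

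Of all microRNAs, 4 arterial and 2 venous passed the cutoff. The arterial count was 2 with the 75th percentile over all microRNAs, the methods' t-test or the slide as block, 12 with raw spot medians, 8 with normexp, the brightest probe or the authors' table, 10 with a floor of 0.1, 0 with a floor of 4, and 8 to 19 with 1 rat left out (19 without rat 1). The venous count was 5 with the 75th percentile over detected microRNAs or normexp, 1 without normalization, 0 with scaling to these control spots or with either filter on detection, 4 with raw spot medians, outliers kept, the median over spots or the authors' table, and 9 to 14 with 1 rat left out (14 without rat 1). At an adjusted p of 0.05, 1 microRNA was called when those detected on at least 1 array were fitted, and 0 otherwise.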
